A study of Mus musculus with 2 samples.

Results

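The mitochondrial ribosomal protein genes were the 78 genes whose symbols begin with Mrpl or Mrps followed by a digit, out of 32285 genes in the tables. By symbol, 49 belonged to the large subunit and 29 to the small subunit. They were measured by single-cell RNA sequencing of CD8+ T cells, the killer lymphocytes, taken from mouse lymph node. The study asked how such cells differ when the matrix around them is electrically stimulated. There were 2 libraries, labelled HC and NC, 1 in each group, both prepared with the same 10x Genomics 3′ kit. Neither abbreviation is spelled out, and the labels do not state which cells were stimulated, the strain or age of the mice, or how many animals were pooled.

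Mitochondria keep their own ribosome, which translates only the few respiratory chain proteins still encoded in mitochondrial DNA. All of its proteins are encoded in the nucleus, made in the cytosol and imported. The large subunit joins amino acids and passes the growing chain through a tunnel to the inner membrane, whereas the small subunit reads the messenger RNA. Some of the proteins have counterparts in bacterial ribosomes, and others are particular to mitochondria. T cells that are activated and begin to divide are known to build more mitochondria and more respiratory chain. Some symbols do not match the structure: the products of Mrps30 and Mrps18a sit in the large subunit, and the product of Mrps36 is now placed in the oxoglutarate dehydrogenase complex.

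RNA molecules were counted by unique molecular identifiers (UMIs), short tags attached as each molecule is captured. Barcodes with under 500 genes or under 1000 UMIs were set aside, as were those in which genes of the mitochondrial DNA gave over 10% of UMIs. That left 13617 HC cells and 13641 NC cells, with 114430972 and 115789139 UMIs. The libraries shared 49 barcodes among kept cells, and without them the number of members past 1.5-fold was the same in each comparison given here. Kept cells with at least 4 UMIs of Mki67 plus Top2a, a proliferation antigen and a topoisomerase of dividing cells, were called dividing, and those with 0 resting. Dividing cells made up 56.2% of HC cells (7646 cells) and 39.7% of NC cells (5418 cells), and resting cells 21.4% (2911 cells) and 31.1% (4245 cells). Apart from those 2, 16 genes of dividing cells summed to 3991 CPM (UMIs per 1000000 UMIs) in dividing and 557 CPM in resting HC cells, and to 3751 and 475 CPM in NC cells. The 8 markers of CD8 T cells summed to 6930 CPM in HC and 7937 CPM in NC, whereas Cd4 had 2 and 1 UMIs. The markers of B cells summed to 16.5 CPM in HC and 35.6 CPM in NC. Among them Igkc was at 32.8 CPM in dividing NC cells and 0.49 CPM in dividing HC cells, and at 9.71 and 12.2 CPM in resting NC and HC cells. The markers of macrophages summed to 3.04 and 6.5 CPM, with 15.9 CPM of Lyz2 in resting NC cells and C1qa at 0 UMIs in both libraries. The part of these cells in the results was not tested.

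With 1 library per group and cells that are not replicates, nothing could be tested, and the 95% intervals given here reflect counting error alone. A contrast of dividing with resting cells could be made within each library, so that it was seen in 2 libraries. Genes with a mean of at least 5 CPM over the libraries were counted, which took in all 78 members and 8551 genes in all. Member levels ran from 8.38 CPM for Mrps2 to 231 CPM for Mrpl18, both named as the ends of the range, with a median of 67.8 CPM, and the member with the fewest UMIs still had 930 in a library. All 78 were found as protein-coding genes in the GENCODE vM21 annotation of the GRCm38 (mm10) build, on 17 chromosomes, with 11 on chromosome 11 and 8 on chromosome 17. There were 36 members that overlapped no other annotated gene. Of the others, 13 overlapped a gene on the same strand and 36 a gene on the opposite strand, some both, and whether counting used the strand is not given in the sources used here.

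Over all cells of a state, transcripts of the mitochondrial ribosome took a larger share of the RNA in dividing than in resting cells. This was so in both libraries and for both subunits. At like depth the small subunit genes of HC differed little between the states, as given further on. In the HC library the large subunit genes summed to 4100 CPM in dividing cells (4086 to 4114) and 3409 CPM in resting cells (3380 to 3439). In the NC library they summed to 4297 CPM in dividing cells (4281 to 4313) and 3602 CPM in resting cells (3579 to 3625). The intervals of dividing and resting cells did not overlap in either library. The small subunit genes summed to 2210 CPM in dividing and 1918 CPM in resting HC cells, and to 2336 CPM in dividing and 1976 CPM in resting NC cells. On the log2 scale the summed difference was 0.27 for the large and 0.20 for the small subunit in HC, and 0.25 and 0.24 in NC.

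The balance of the subunits moved little. The ratio of large to small subunit UMIs was 1.86 in dividing HC cells (1.84 to 1.87) and 1.78 in resting HC cells (1.75 to 1.80). In the NC library it was 1.84 (1.83 to 1.85) in dividing and 1.82 (1.80 to 1.84) in resting cells, with intervals that overlapped. With Mrps30 and Mrps18a moved to the large subunit and Mrps36 left out, the ratios were 2.09 and 2.0 in HC and 2.08 and 2.05 in NC.

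Along the count of the 2 dividing-cell genes, the family's share did not climb steadily. In HC the 78 genes summed to 5327 CPM at 0 UMIs of Mki67 plus Top2a, 5852 CPM at 1 to 3, 6500 CPM at 4 to 9, 6410 CPM at 10 to 19 and 6177 CPM at 20 or more. In NC the sums over the same classes were 5578, 6240, 6823, 6788 and 6451 CPM. Both libraries were thus lowest at 0 UMIs and highest at 4 to 9 UMIs, and lower again at 20 or more. The class of 4 to 9 UMIs held the highest level of 40 of 78 members in HC and 31 in NC, and the class of 0 UMIs the lowest level of 55 in HC and 58 in NC. No such count was made over all genes, so these numbers do not show a pattern particular to the family. The classes also differed in depth: median UMIs per cell rose along them from 4922 to 11117 in HC and from 5659 to 13399 in NC.

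**Figure D1:**
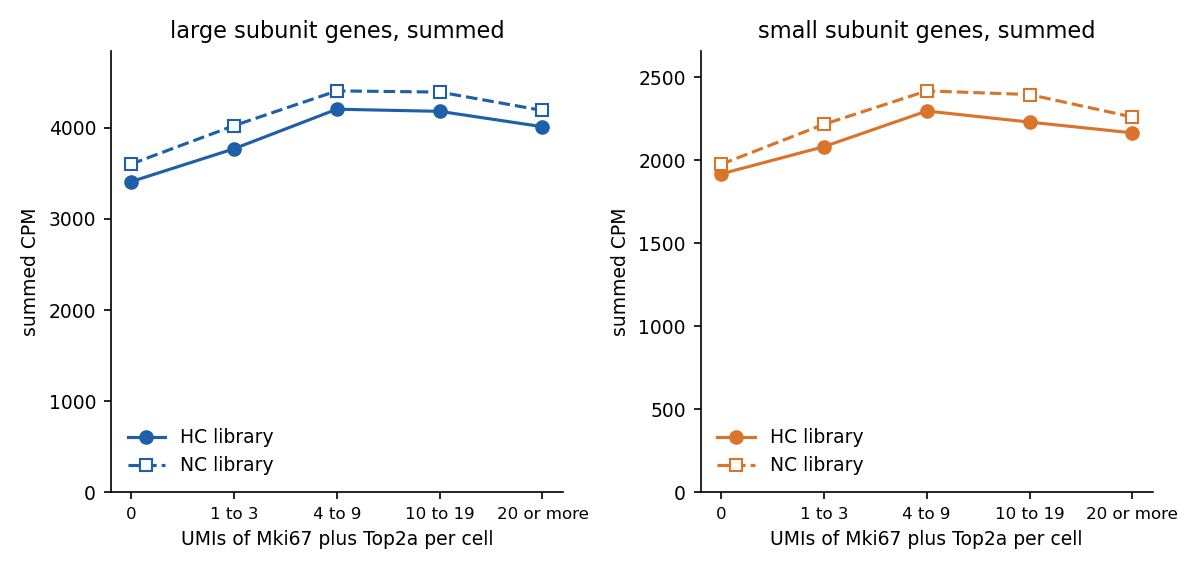
Summed level of the large subunit genes (left) and small subunit genes (right), in CPM on axes that start at 0, in cells grouped by their UMIs of Mki67 plus Top2a. Filled points are the HC library and open points the NC library; both subunits peak at 4 to 9 UMIs in both libraries.

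Gene by gene, the family was shifted upwards in dividing cells, by less than 1.5-fold for most members. In HC, 63 of 78 members were above 0 on the log2 scale of dividing over resting (80.8%, against 57.0% of all genes), with a median of 0.24 against 0.07 for all genes. In NC, 64 were above 0 (82.1%, against 53.3%), with a median of 0.32 against 0.03. The share of members that were at least 1.5-fold higher was nonetheless below the background: 8 of 78 in HC (10.3%) where 16.1% of all genes were, and 10 of 78 in NC (12.8%) where 15.2% were. None was 1.5-fold lower in dividing cells, where 5.64% of all genes were in HC and 7.75% in NC. In both libraries at once, 8 members were 1.5-fold higher, against 13.3% of all genes, and none lower, against 4.62%. With ribosomal and mitochondrially encoded genes left out of the total, 49 members were above 0 in HC (62.8%, against 43.6% of all genes) and 57 in NC (73.1%, against 42.5%). By that total, 4 members were 1.5-fold higher and none lower in HC, where 12.2% of all genes were higher and 9.87% lower. In NC, 6 members were higher and 1 lower, where 11.9% of all genes were higher and 11.8% lower.

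The ratios of the members were alike in the 2 libraries. Of the 78, 60 were higher in dividing cells of both, 11 lower in both, and 7 had opposite signs. Across these 78 genes, which share a library's depth and are not independent replicates, Pearson's r between the libraries was 0.92 and Spearman's rho 0.91, and over all 8551 genes they were 0.97 and 0.93. Counting intervals lay wholly above 0 for 55 members in HC and 57 in NC, and wholly below 0 for 9 and 10.

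**Figure D2:**
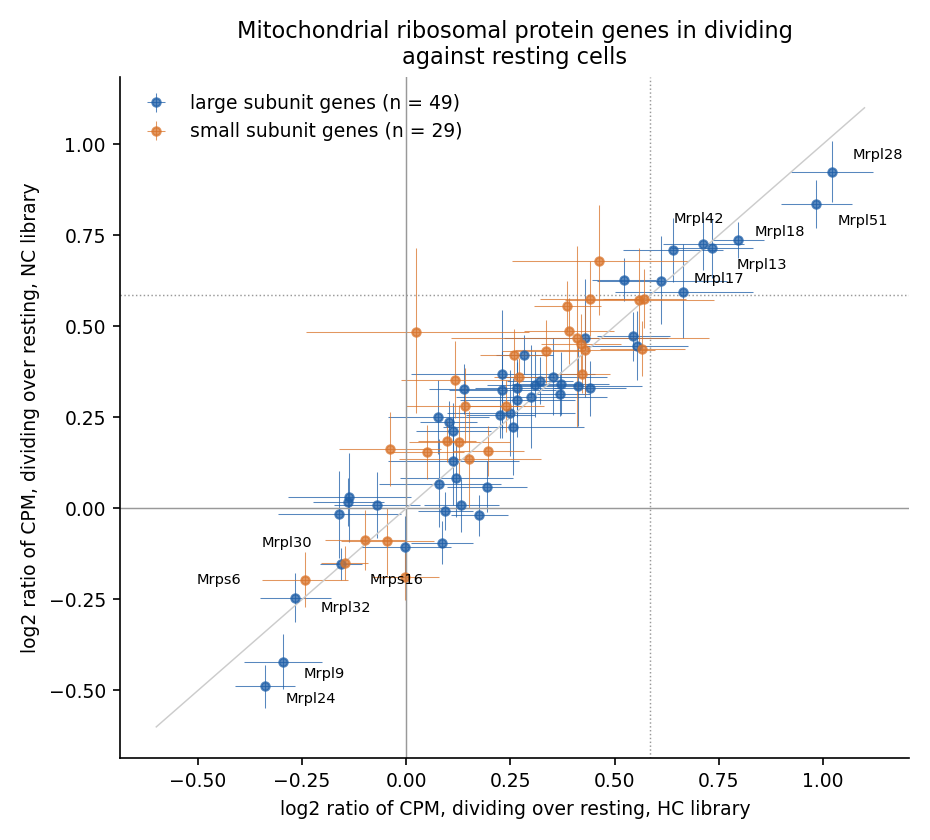
Each point is 1 of 78 genes, with its log2 ratio of CPM in dividing over resting cells in the HC library (horizontal) and the NC library (vertical); bars are 95% counting intervals and dotted lines mark 1.5-fold. Points lie along the diagonal, most above 0 in both libraries, with Mrpl28 and Mrpl51 at the upper end and Mrpl24 and Mrpl9 at the lower end.

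The members with the highest ratios were all large subunit genes. Mrpl28, which encodes a protein with a bacterial counterpart (chr17:26123500-26126613, plus strand), had 121 CPM in dividing HC cells (118 to 123) and 59.5 CPM in resting HC cells (55.7 to 63.5). In the NC library it had 105 CPM in dividing (103 to 108) and 55.5 CPM in resting cells (52.7 to 58.5), so that it was 2.03-fold and 1.90-fold higher in dividing cells. No gene overlaps it. Mrpl51, a protein particular to mitochondria (chr6:125191801-125196269, plus strand), had 159 CPM in dividing and 80.4 CPM in resting HC cells, and 162 CPM in dividing and 90.9 CPM in resting NC cells. Its log2 ratios of 0.98 (0.90 to 1.07) and 0.84 (0.77 to 0.90) were close to those of Mrpl28, at 1.02 (0.92 to 1.12) and 0.92 (0.84 to 1.01).

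Mrpl18, whose product lies in the central protuberance at the top of the large subunit, had 265 CPM in dividing and 153 CPM in resting HC cells, and 260 CPM in dividing and 156 CPM in resting NC cells. Its log2 ratios were 0.80 and 0.74. It overlaps Tcp1, a subunit of the cytosolic chaperonin on the opposite strand, whose own log2 ratios were 0.59 and 0.81, and their part in each other's counts was not tested. Mrpl13, a large subunit protein with a bacterial counterpart, had 102 CPM in dividing and 61.6 CPM in resting HC cells, and 97.6 CPM in dividing and 59.5 CPM in resting NC cells, which gave log2 ratios of 0.73 and 0.71. It overlaps Mtbp on the opposite strand, which was at 10.1 CPM in HC and 8.30 CPM in NC. Mtbp had log2 ratios of dividing over resting of 1.84 in HC and 1.55 in NC, and its part in the counts of Mrpl13 was not tested.

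Mrpl42, particular to mitochondria, had 104 CPM in dividing and 63.6 CPM in resting HC cells, and 124 CPM in dividing and 75.1 CPM in resting NC cells. Its log2 ratios were 0.71 and 0.73. Mrpl17, which has a bacterial counterpart, followed with log2 ratios of 0.64 and 0.71. Mrpl49 and Mrpl55 completed the genes past 1.5-fold in both libraries, at 0.67 and 0.60 and at 0.61 and 0.63. Past 1.5-fold in NC but not in HC were Mrpl12 (0.52 in HC and 0.63 in NC) and Mrps28 (0.46 and 0.68), and the difference between the libraries was not tested for either. Averaged over 4 bands of like depth from 3000 to 20000 UMIs per cell (described further on), Mrpl28, Mrpl51 and Mrpl18 were past 1.5-fold in HC, and these with Mrpl13 in NC. Mrpl42 was then at 0.30 in HC and 0.54 in NC, Mrpl17 at 0.38 and 0.51, Mrpl49 at 0.23 and 0.49 and Mrpl55 at 0.15 and 0.42, all under 1.5-fold. Mrps28, which was alone among the small subunit genes in passing 1.5-fold, was at 28 CPM in dividing and 17.5 CPM in resting NC cells.

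At the other end were genes that were lower in dividing cells of both libraries. Mrpl24 (chr3:87919506-87923672, plus strand), whose protein lies at the exit of the peptide tunnel, had 101 CPM in dividing (98.6 to 103) and 127 CPM in resting HC cells (122 to 133). In the NC library it had 97.2 CPM in dividing (94.8 to 99.7) and 136 CPM in resting cells (132 to 141). Its log2 ratios were thus -0.34 (-0.41 to -0.27) and -0.49 (-0.55 to -0.43). It overlaps Rrnad1 on the opposite strand, which was at 15.1 CPM in HC and 15 CPM in NC. Rrnad1 had log2 ratios of dividing over resting of -0.28 in HC and -0.43 in NC, and its part in the counts of Mrpl24 was not tested. Mrpl9 (chr3:94443318-94451130, plus strand), also with a bacterial counterpart, had 61.2 CPM in dividing and 75.1 CPM in resting HC cells, and 63.0 CPM in dividing and 84.4 CPM in resting NC cells. Its log2 ratios were -0.30 and -0.42.

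Mrpl32 (chr13:14608184-14613165, minus strand), whose protein is matured by a protease of the mitochondrial inner membrane, had 75.1 CPM in dividing and 90.3 CPM in resting HC cells, and 83.1 CPM in dividing and 98.5 CPM in resting NC cells. Its log2 ratios were -0.27 and -0.24. Mrps6 of the small subunit had log2 ratios of -0.24 and -0.20, and Mrpl30 and Mrps16 lay nearest to 0 among the 6 lowest, at -0.16 and -0.15 and at -0.15 and -0.15. None of these 6 reached 1.5-fold, but all 6 had intervals wholly below 0 in both libraries.

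The 7 members with opposite signs in the 2 libraries, named here after their values were seen, all lay near 0. Mrpl43, Mrpl34 and Mrpl58 were above 0 in HC and below it in NC, at 0.09 and -0.09, at 0.09 and -0.01 and at 0.18 and -0.02. Mrpl44, Mrpl45, Mrpl52 and Mrps30 were below 0 in HC and above it in NC, at -0.14 and 0.03, at -0.07 and 0.01, at -0.14 and 0.02 and at -0.04 and 0.16. Just under 1.5-fold in both libraries were 2 small subunit genes, Mrps12, at 0.57 and 0.58, and Mrps22, at 0.56 and 0.57. Mrps17 was at 0.57 in HC but 0.44 in NC, and Mrps25 at 0.44 in HC and 0.58 in NC. Mrps22, Mrps17 and Mrps25 were also named after their values were seen.

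The genes at both ends did not all follow the same course along the count of dividing-cell UMIs. Mrpl28 and Mrpl51 rose up to 10 to 19 UMIs in both libraries, with no peak at 4 to 9 UMIs. Mrpl13 and Mrpl42, also among the highest ratios, did peak at 4 to 9 UMIs in both libraries. Mrpl17 was lower at 20 or more UMIs than at 10 to 19 in both. At the low end, Mrpl30 in NC was higher at 1 to 3 UMIs than at 0. From 0 UMIs to 20 or more, Mrpl28 had 59.5, 84.4, 113, 123 and 122 CPM in HC and 55.5, 76.2, 96.5, 106 and 110 CPM in NC. Mrpl24 had 127, 115, 102, 100.4 and 100.7 CPM in HC and 136, 117, 102, 94.7 and 96.1 CPM in NC. Most of the difference of both genes was thus already present in cells with 4 to 9 UMIs. Mrps6 differed between the libraries: it had 62.4 CPM at 0 UMIs and 59.2 CPM at 1 to 3 UMIs in HC, but 82.7 and 89.7 CPM in NC.

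**Figure D3:**
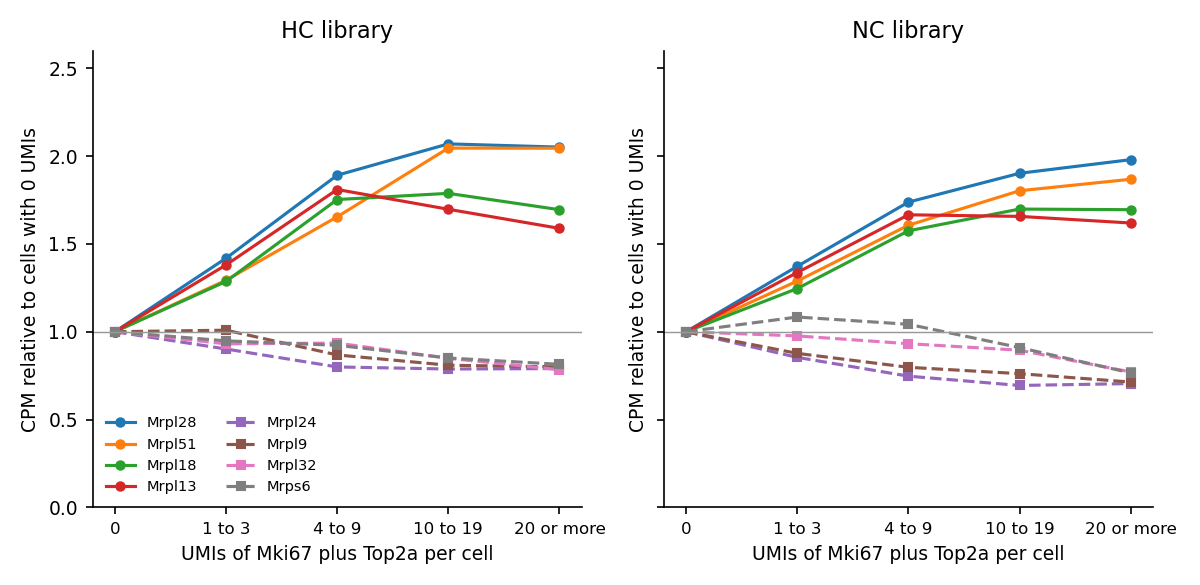
CPM of the 4 members with the highest (solid lines) and the 4 with the lowest (dashed lines) mean ratio of dividing over resting cells, relative to their own level in cells with 0 UMIs of Mki67 plus Top2a, in the HC library (left) and the NC library (right). Mrpl28 and Mrpl51 end at about 2 times their level at 0 UMIs in HC, and the dashed lines end below 1 in both libraries.

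The stretches from 130 bases before to 20 bases after the RefSeq start are printed for 5 of these genes, from opposite ends of the family. They are RefSeq sequences of the GRCm38.p6 build on the strand of the gene. RefSeq starts can differ from the GENCODE spans given above. The stretch of Mrpl51 lies wholly inside its GENCODE span and that of Mrpl32 almost wholly, so by GENCODE these 2 are not upstream of the gene. Capitals mark the letters CCGGAAG, a core bound by factors of the ETS family, and CATGCGC, from the site of nuclear respiratory factor NRF1, on either strand. The first 2 lines are genes that were higher in dividing cells (Mrpl28 at chr17:26123373-26123522 and Mrpl51 at chr6:125192070-125192219), and the other 3 genes that were lower (Mrpl24 at chr3:87919414-87919563, Mrpl9 at chr3:94443206-94443355 and Mrpl32, on the minus strand, at chr13:14613018-14613167).
Mrpl28: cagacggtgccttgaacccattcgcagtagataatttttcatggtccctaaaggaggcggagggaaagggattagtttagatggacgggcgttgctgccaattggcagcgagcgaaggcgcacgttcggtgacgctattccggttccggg
Mrpl51: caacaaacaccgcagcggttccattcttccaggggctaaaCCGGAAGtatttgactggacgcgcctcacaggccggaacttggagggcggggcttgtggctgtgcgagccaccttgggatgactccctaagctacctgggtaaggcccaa
Mrpl24: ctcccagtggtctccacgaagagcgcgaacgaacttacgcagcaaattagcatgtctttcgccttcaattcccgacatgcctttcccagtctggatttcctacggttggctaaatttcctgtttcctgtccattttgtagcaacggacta
Mrpl9: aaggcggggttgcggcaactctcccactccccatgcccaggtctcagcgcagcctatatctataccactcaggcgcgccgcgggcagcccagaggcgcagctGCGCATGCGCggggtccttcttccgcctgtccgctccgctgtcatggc
Mrpl32: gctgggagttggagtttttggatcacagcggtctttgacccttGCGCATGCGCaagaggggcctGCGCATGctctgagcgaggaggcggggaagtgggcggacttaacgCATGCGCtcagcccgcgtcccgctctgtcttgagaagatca

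The stretch of Mrpl51 held the ETS letters, those of Mrpl9 and Mrpl32 the NRF1 letters, and those of Mrpl28 and Mrpl24 neither. Windows from 250 bases before to 50 after a RefSeq start were matched for 69 of the 78 members and searched on both strands for 6 sets of letters. The ETS letters were in 37.7% of these genes, against 25% of all genes at 5 CPM or more with a window and 9.93% of all genes with one. AAGATGG, from the site of YY1, was in 18.8%, against 9.64% and 7.28%, and the NRF1 letters in 11.6%, against 9.26% and 4.41%. CCAAT was in 39.1%, against 43.1% and 41.1%. CACGTG, the E-box bound by MYC, was in 7.25% of the member genes, against 12.4% and 8.09%, and TATAAA in 7.25%, against 7.70% and 15.7%. A match describes these letters and is not evidence of binding.

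By place in the ribosome, the flexible stalk recruits translation factors to the large subunit. All 3 of its genes were higher in dividing cells of both libraries, with summed levels of 244 CPM in dividing and 182 CPM in resting HC cells, and 276 CPM in dividing and 195 CPM in resting NC cells. Mrpl12, which also binds the mitochondrial RNA polymerase, had 146 CPM in dividing and 102 CPM in resting HC cells, and 170 CPM in dividing and 110 CPM in resting NC cells. Mrpl10 and Mrpl11, at the base of the stalk, had log2 ratios of 0.30 and 0.27 in HC and 0.31 and 0.33 in NC. Averaged over bands of like depth, Mrpl11 was at -0.20 in HC and 0.04 in NC, Mrpl10 at 0.17 and 0.15, and Mrpl12 at 0.20 and 0.30.

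The 7 genes of the tunnel exit, where the new chain leaves for the membrane, were at much the same summed level in both states: they summed to 385 CPM in dividing and 383 CPM in resting HC cells, and to 396 and 397 CPM in NC. The summed log2 ratios were 0.01 (-0.03 to 0.05) and 0.00 (-0.04 to 0.03). Their members pointed in different ways, from Mrpl24 at the low end to Mrpl23, at 0.32 in HC and 0.35 in NC, and Mrpl47, at 0.23 and 0.37. Mrpl45, which holds the ribosome to the inner membrane, had log2 ratios of -0.07 (-0.17 to 0.03) and 0.01 (-0.08 to 0.10), so that its intervals held 0 in both libraries.

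The 10 genes of the central protuberance summed to 818 CPM in dividing and 656 CPM in resting HC cells, and to 847 and 690.5 CPM in NC. Of these, 6 were above 0 in HC and 7 in NC, and Mrpl18 held the highest ratio. Mrpl58, a peptidyl-tRNA hydrolase that frees stalled chains, had log2 ratios of 0.18 (0.11 to 0.24) in HC and -0.02 (-0.07 to 0.04) in NC. In the head and decoding centre of the small subunit, 6 of 7 genes were above 0 in both libraries, with summed log2 ratios of 0.31 and 0.35. Mrps12, at the decoding centre, had 90.4 CPM in dividing and 60.8 CPM in resting HC cells, and 91.2 CPM in dividing and 61.2 CPM in resting NC cells, just under 1.5-fold in both. The gene below 0 was Mrps9, at -0.10 and -0.09.

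Genes with bacterial counterparts were set beside genes particular to mitochondria. In the large subunit the medians of dividing over resting were 0.26 (30 genes) and 0.23 (21 genes) in HC, and 0.32 and 0.25 in NC. In the small subunit they were 0.30 (16 genes) and 0.15 (10 genes) in HC, and 0.40 and 0.23 in NC. The median was higher for genes with counterparts in all 4 pairs, but the summed log2 ratio was not. In the large subunit that ratio was lower for genes with counterparts, at 0.25 against 0.30 in HC and 0.25 against 0.27 in NC. In the small subunit it was higher for them, at 0.21 against 0.18 in HC and 0.25 against 0.21 in NC. These differences were not tested.

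The 3 genes named after bacterial S18 encode different proteins of the mitochondrial ribosome, and they did not have the same values. Mrps18a had log2 ratios of 0.39 in HC and 0.49 in NC for dividing over resting, Mrps18c 0.42 and 0.45, and Mrps18b 0.14 and 0.28. Averaged over bands of like depth, Mrps18b was at -0.29 in HC and 0.01 in NC. Between the libraries, Mrps18b stood apart: it had 34.5 CPM in HC and 47.4 CPM in NC, a log2 ratio of -0.46 (-0.52 to -0.40). Mrps18a was at 64.6 and 64.0 CPM and Mrps18c at 83.9 and 77.3 CPM.

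Dividing cells also held more RNA, so the contrast was repeated among cells of like depth. Median UMIs per cell were 9513.5 in dividing and 4922 in resting HC cells, and 10873 and 5659 in NC. In resting HC cells the summed level of the 78 genes was higher in each deeper band, at 4784 CPM from 1000 to 3000 UMIs, 5066 CPM to 5000, 5411 CPM to 8000, 5819 CPM to 12000 and 6410 CPM to 20000 UMIs. Resting NC cells showed no such order: the same bands held 6282.5, 5446, 5351, 6105 and 6408 CPM, so that the shallowest exceeded the next 3. In the shallowest band, of 57 dividing and 180 resting HC cells and 61 dividing and 108 resting NC cells, the log2 ratios of dividing over resting were -0.05 (-0.18 to 0.08) in HC and 0.02 (-0.10 to 0.15) in NC. In the 4 bands from 3000 to 20000 UMIs, dividing cells exceeded resting cells by 0.11, 0.10, 0.08 and 0.05 on the log2 scale in HC and by 0.27, 0.22, 0.02 and 0.07 in NC. The deepest of these bands held only 22 resting HC cells, and its interval held 0 (-0.01 to 0.12). In these 4 bands the large subunit genes were higher in dividing cells of both libraries. The small subunit genes of HC were at 1853, 1989, 2157 and 2347 CPM in dividing cells and 1822, 1938, 2155 and 2347 CPM in resting cells. In NC they were higher in dividing cells except at 8000 to 12000 UMIs (2164 against 2191 CPM).

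The shift of the family was therefore smaller at equal depth. Every average over bands gave the 4 bands equal weight, also the one with 22 resting HC cells, which held 299058 UMIs. Averages of single members in HC are thus less sure than ratios over all cells. Averaged over the 4 bands, the median of the 78 log2 ratios was 0.05 in HC, no higher than the 0.05 of all genes, and 0.13 in NC, against -0.04 for all genes. The share of members above 0 was then 56.4% in HC, as over all genes, and 73.1% in NC, against 45.8%, and 23 of 78 members in HC and 9 in NC changed sign from the ratio over all cells. The genes at both ends kept their direction: averaged over bands, Mrpl28 was at 0.86 in HC and 0.73 in NC, Mrpl51 at 0.87 and 0.75, Mrpl24 at -0.35 and -0.41, and Mrpl9 at -0.29 and -0.38. Mrps6 was at -0.73 in HC and -0.25 in NC by this average, which counts the band with 22 resting HC cells in full. When cells were thinned to 2000 UMIs each, which left out 94 HC and 133 NC cells, a dividing cell held 12.4 ± 4.07 UMIs of the family in HC and a resting cell 10.5 ± 3.63 (SD over cells). In NC the values were 13.0 ± 4.24 in dividing and 11.1 ± 3.9 in resting cells. The means differed by less than the spread between cells. Without thinning, the median was 58 UMIs in dividing and 25 in resting HC cells, and 67 and 30 in NC.

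**Figure D4:**
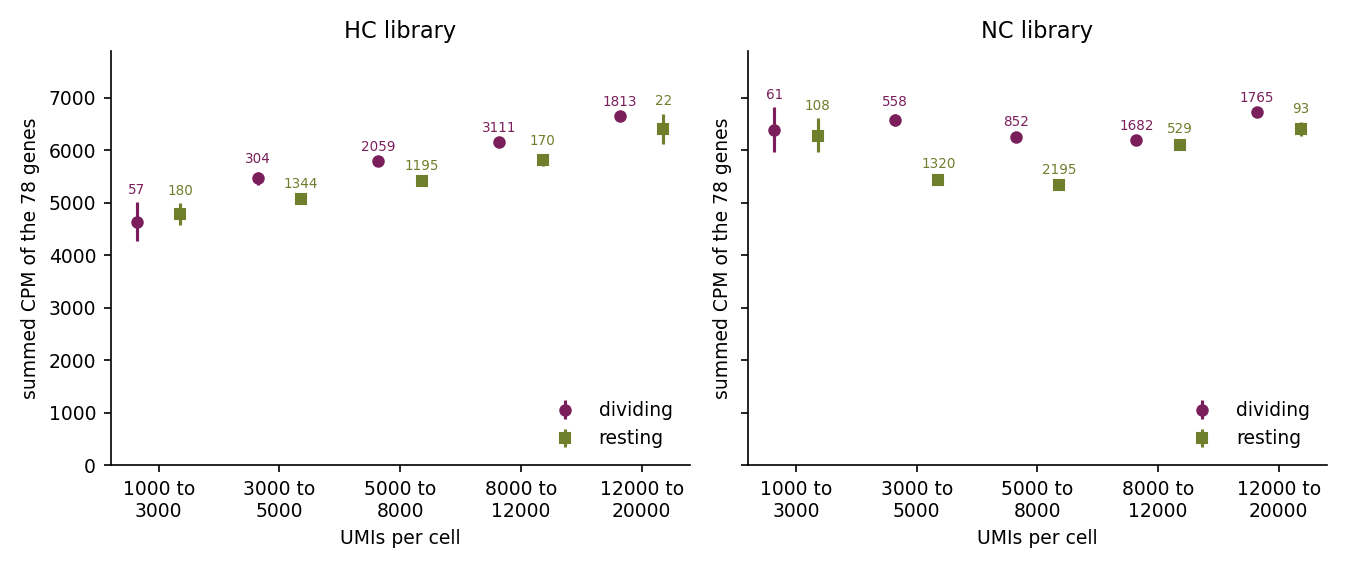
Summed CPM of the 78 genes in dividing cells (circles) and resting cells (squares) of like depth, in the HC library (left) and the NC library (right), on an axis that starts at 0. Bars are 95% counting intervals and the numbers are cells. Circles lie above squares from 3000 UMIs on. The bars overlap at 1000 to 3000 UMIs in both libraries, at 12000 to 20000 UMIs in HC and at 8000 to 12000 UMIs in NC. Squares reach 6410 CPM in HC and 6408 CPM in NC in the deepest band.

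Between the libraries, the family differed little. In all kept cells the 78 genes summed to 6103 CPM in HC (6089 to 6118) and 6311 CPM in NC (6297 to 6326), a log2 ratio of -0.05. The large subunit genes were at 3954 and 4081 CPM and the small subunit genes at 2150 and 2230 CPM, so the ratio of large to small was 1.84 in HC and 1.83 in NC. The median of HC over NC was -0.07 for the members and -0.03 for all genes, and 23 of 78 members were above 0 (29.5%, against 43.6% of all genes). None of the 78 was 1.5-fold higher, where 1.71% of all genes were, and none 1.5-fold lower, where 1.36% were. The ratios ran from -0.51 to 0.28, and 65 of 78 lay within 0.2 of 0.

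The gene with the lowest ratio of HC over NC was Mrps6 (chr16:92058270-92112227, plus strand), at 55.1 CPM in HC and 78.5 CPM in NC, or -0.51 (-0.56 to -0.46). The gene of the inositol transporter Slc5a3 lies within its locus on the same strand, and was at 11.6 CPM in HC and 12.9 CPM in NC, or -0.15. For dividing over resting Slc5a3 was at -0.67 in HC and -0.57 in NC, and its part in the counts of Mrps6 was not tested. After Mrps6 came Mrps28, at 18.2 CPM in HC and 25.3 CPM in NC, and then Mrps18b. These 3 small subunit genes stood below all others, of which Mrpl36 was next at -0.34 (76.0 CPM in HC and 95.9 CPM in NC), followed by Mrpl52 at -0.32 and Mrpl17 at -0.29.

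At the high end, Mrpl28 had 107 CPM in HC and 87.8 CPM in NC, or 0.28 (0.24 to 0.32). Mrpl14, whose protein binds the assembly factor Malsu1, had 103 CPM in HC and 85.3 CPM in NC, or 0.27 (0.23 to 0.31). The others lay lower: Mrpl13 and Mrpl54 at 0.15 each, Mrps18c at 0.12 and Mrpl18 at 0.10. HC held more dividing cells than NC, and the ratios were also taken within each state. Within dividing cells Mrpl28 was at 0.20 (0.15 to 0.24) and Mrpl14 at 0.26 (0.21 to 0.31), and within resting cells at 0.10 (-0.02 to 0.22) and 0.15 (0.05 to 0.26). Mrpl18 was at 0.02 (-0.005 to 0.054) within dividing and -0.03 (-0.11 to 0.04) within resting cells, so that its intervals held 0 in both states. Mrpl13 was at 0.07 within dividing and 0.05 within resting cells.

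**Figure D5:**
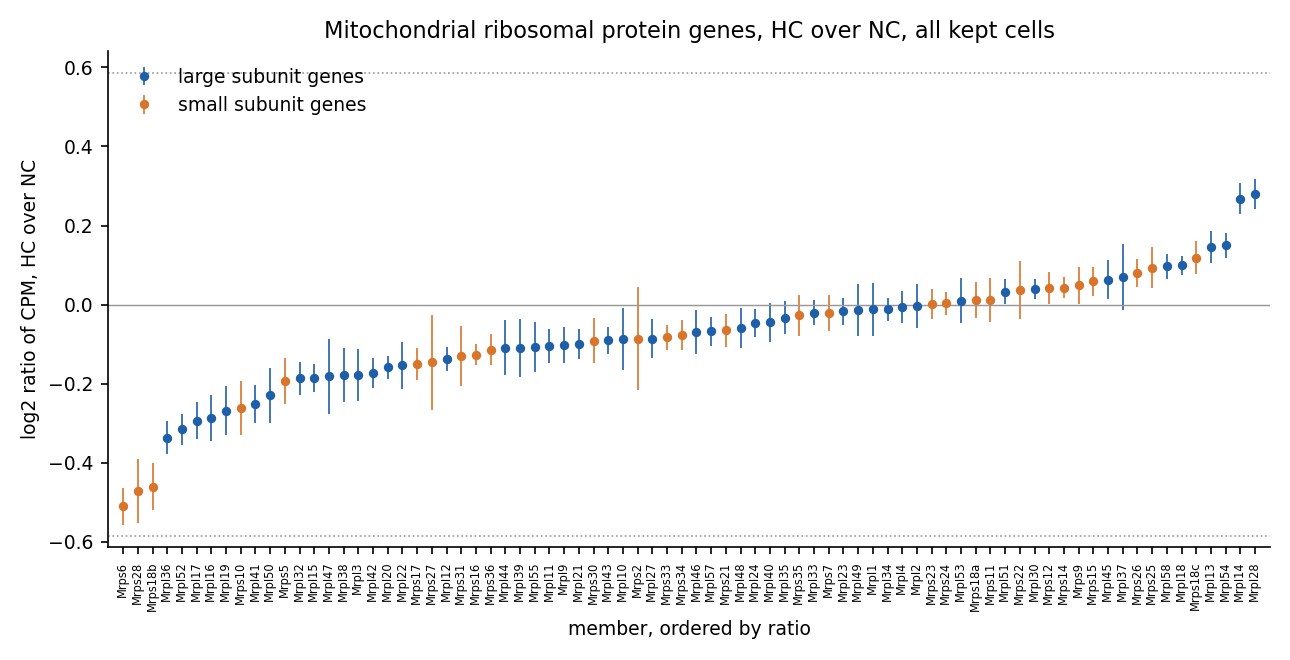
Log2 ratio of CPM in HC over NC, all kept cells, for the 78 genes in order of the ratio; bars are 95% counting intervals and dotted lines mark 1.5-fold. Most genes lie between -0.2 and 0.2, Mrps6, Mrps28 and Mrps18b stand below the others, and none crosses a dotted line.

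The same held within each state. Among dividing cells the family summed to 6310 CPM in HC and 6633 CPM in NC. The median over members was -0.08, against -0.02 for all genes, and 17 of 78 were above 0 (21.8%, against 44.8% of all genes). None was 1.5-fold higher (1.63% of all genes) and none 1.5-fold lower (1.68%). Among resting cells the family summed to 5327 CPM in HC and 5578 CPM in NC, with a median of -0.07 against -0.08 for all genes. Above 0 were 25 members (32.1%, against 35.2% of all genes), so that the family lay close to all genes there. Again none was 1.5-fold higher (2.22%) or lower (2.06%). In both states at once, 47 members were lower in HC and 11 higher, and 20 differed in sign, a count that was not made over all genes.

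Mrps18b, Mrps28 and Mrps6 were low in HC in both states. Mrps18b had 34.2 CPM in HC and 49.2 CPM in NC among dividing cells, and 31.0 CPM in HC and 40.4 CPM in NC among resting cells. Mrps28 was at -0.54 among dividing cells, the member nearest to the 1.5-fold line, and at -0.32 among resting cells, and Mrps6 at -0.45 and -0.41.

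Other genes of the same pathway were set beside the family. The 5 proteins of the mitochondrial ribosome that carry other names (Dap3, Ptcd3, Aurkaip1, Chchd1 and Gadd45gip1) were all higher in dividing cells, with medians of 0.31 in HC and 0.26 in NC, and none past 1.5-fold. Assembly factors of the mitochondrial ribosome had medians of -0.02 in HC and 0.02 in NC, and 11 and 12 of 22 measured genes were above 0. Of those, Tfb1m, which methylates the small subunit's ribosomal RNA, was past 1.5-fold in both libraries, at 1.13 and 0.86, and Nsun4 was past it downwards in HC, at -0.70, against -0.10 in NC. Mitochondrial translation factors had medians of 0.15 and 0.09 over 13 genes, with Tsfm, an elongation factor, at 0.46 and 0.65. Mitochondrial tRNA synthetases and related enzymes had medians of 0.16 and 0.24 over 15 genes, of which 11 were above 0 in each library. In each library 3 of the 15 were 1.5-fold higher, where 16.1% of all genes were in HC and 15.2% in NC. Lars2, for leucine, was the lowest of the list, at -0.61 and -0.51.

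The factors that copy and transcribe mitochondrial DNA had medians of 0.09 and 0.19 over 9 genes, of which 6 and 5 were above 0. Tfam, which packages that DNA, was at 0.49 and 0.36. Past 1.5-fold were 1 gene upwards in HC, as were 16.1% of all genes, and 1 downwards in NC, as were 7.75%. Protein import genes had medians of 0.16 in HC and 0.23 in NC, and 23 of 24 were above 0 in each, led by Timm8a1 at 1.16 and 0.84 and Timm50 at 0.95 and 0.99. Nuclear genes of the respiratory chain had medians of 0.16 and 0.25, with 39 of 44 above 0 in HC and 40 in NC. The 13 genes that mitochondria themselves encode, whose messages this ribosome translates, had medians of -0.11 and -0.01. The 82 measured cytosolic ribosomal protein genes had medians of -0.18 and -0.19, with 3 above 0 in HC and 8 in NC, and their share of all UMIs was 36.0% in dividing and 40.8% in resting HC cells, and 35.2% and 39.9% in NC. Factors that build the cytosolic ribosome had medians of 0.35 and 0.39, with 19 of 20 above 0 in each library.

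Between the libraries the medians of those lists were spread more widely. Factors that build the cytosolic ribosome had a median of HC over NC of -0.52, and 9 of 20 were 1.5-fold lower, whereas the mitochondrial ribosomal protein genes were at -0.07 with none. Import genes were at -0.15, nuclear respiratory chain genes at 0.02, and mitochondrially encoded genes at 0.11, with 12 of 13 above 0. Cells had been selected on the share of these last genes, which was 4.35% of UMIs in HC and 4.01% in NC.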

How the data were processed

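Single-cell RNA libraries of mouse lymph node CD8+ T cells, labelled HC and NC, were made with the 10x 3′ v3.1 kit, per the labels' protocols. The deposited tables are raw counts, whole numbers of UMIs for each gene in each barcode. Cell Ranger 6.1.2 wrote them, per the file headers, whereas mm10, Seurat 3.2.3 and Cell Ranger 5.0.0 are named in the submitters' processing notes. The rule that kept barcodes is not given in the sources used here, and none had under 500 UMIs. HC held 15495 barcodes and 116897716 UMIs, of which 87.9% of barcodes passed the filter, and NC 14798 barcodes and 117408492 UMIs (92.2%). Doublets were not removed.

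Counts were summed per library and state and divided by the total to give CPM, with exact Poisson intervals. Log2 ratios of CPM carry exact binomial intervals at the same 95% level, which cover counting error alone. Nothing was added to the counts before logs were taken. Mki67 and Top2a, which define the split, were left out of the genes compared. A member counted as higher or lower at 1.5-fold. No model was fitted and no p-value computed. Named members are the 6 highest and 6 lowest ratios (mean of at least 20 CPM) of HC over NC and of dividing over resting, those past 1.5-fold, the S18 paralogues and examples of each role list. The named genes of other lists are among the 4 with the largest ratios. The members and lists were chosen with earlier results of these data known. Where a member outside this rule is named, the text says that its values were known. A gene of the lists set beside the family is not reported here.

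Positions came from GENCODE vM21 and promoter sequences from RefSeq. Summing and ratios were tested on simulated data. Alternatives changed the scaling (TMM from edgeR 4.0.16 and median of ratios from DESeq2 1.42.0, used for factors only), cell weights, depth, filters, split and fold. Python 3.11.15, numpy 2.4.6, scipy 1.17.1, pandas 2.3.3, matplotlib 3.10.9 and R 4.3.3 were used.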

Additional observations from a re-analysis of the deposited data

Results flagged for a closer look

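Mrpl43, a large subunit gene named after its values were seen, was higher in dividing than in resting HC cells, at 121 against 114 CPM, and lower in dividing than in resting NC cells, at 125 against 134 CPM. Its log2 ratios of dividing over resting were 0.0856 in HC and -0.0938 in NC, with counting intervals of 0.01 to 0.16 and -0.15 to -0.04 on opposite sides of 0. With 1 library per group the difference was not tested. It overlaps Twnk, the mitochondrial DNA helicase, on the opposite strand, which was at 6.0 CPM in HC and 6.84 CPM in NC. Twnk had log2 ratios of dividing over resting of 0.17 in HC and 0.23 in NC.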

How the results depend on the processing

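No paired analysis was possible because there was 1 library per group. None of the medians over members changed sign in any setting, whereas counts of members have no sign that could change. The sign leaves aside the gap to all genes, and averaged over depth bands the HC median of dividing over resting was no higher than theirs. Counts of members past a limit are given in this section without the share of all genes, so they cannot be read as particular to the family. For the total without ribosomal and mitochondrially encoded genes, the shares for dividing over resting were given above. The median of HC over NC in all cells ran from -0.10 to -0.02, and 4 members were lower at a laxer limit, a ratio of 5 to 4. Dividing over resting in HC had a median of 0.11 when the total left out ribosomal and mitochondrially encoded genes, which moved the median of all genes from 0.07 to -0.07 (in NC from 0.03 to -0.09), so that the gap to all genes stayed at 0.18 in HC and 0.29 in NC. The HC median was 0.13 in cells of 5000 to 15000 UMIs, 0.051 with the split made after thinning and 0.049 averaged over depth bands (chosen after seeing the data). The members higher in HC then numbered 4, 4, 1 and 3, with 29 at the laxer limit, 1 at 2-fold and 3 among those with no overlapping gene (chosen after seeing the data, 36 members). Members lower in HC were 1 at the laxer limit and 3 over depth bands. In NC the same 4 settings gave medians of 0.20, 0.17, 0.11 and 0.13 and 6, 6, 1 and 4 members higher, with 39 at the laxer limit, 0 at 2-fold and 3 with no overlap. Members lower in NC were 1 with the reduced total, 1 after thinning and 2 at the laxer limit. Among dividing cells, members lower in HC than in NC were 1 after thinning, 5 at the laxer limit and 1 over depth bands. Among resting cells the median of HC over NC was -0.011 with TMM, -0.013 with median of ratios, -0.028 with the reduced total and -0.011 at 5000 to 15000 UMIs, and 1 member was higher and 1 lower after thinning, and 4 lower at the laxer limit. The ratios of the 6 highest and 6 lowest members kept their sign, those of HC over NC in all 10 alternatives and those of dividing over resting in all 14, except that of Mrps6 in HC, which was 0.00 in 1 of them. Of the other members named with a ratio of dividing over resting, averaging over depth bands turned Mrpl11 (-0.20) and Mrps18b (-0.29) in HC and Mrpl58 (0.09) and Mrpl52 (-0.04) in NC, and left Mrpl44 at 0.00 in NC. Depth limits the rarest member to 101 UMIs in a state, and animals, cultures and library cannot be told apart from the groups.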
